A study of Mus musculus with 18 samples.

Results

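The genes described here carry glucose into the cell, break it down to pyruvate and lactate, and build and break glycogen. They are 30 named genes of these steps, matched by gene symbol among 49315 genes counted, and 29 of them had at least 10 counts in 3 or more of the 18 libraries. The exception was Aldoc, the brain form of aldolase, which reached 10 counts in 2 libraries and was not tested. The list was taken from knowledge of the pathway and not from a cut on the values, but with earlier results of these data known.

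Glucose enters heart muscle mainly through GLUT4, which insulin moves to the surface, and in the foetal heart and in other cells more through GLUT1. Each later step has forms of the enzyme that differ between muscle and other tissues, and many of these switch around birth, when the heart turns from glucose to fatty acids. Hexokinase and phosphofructokinase set the pace of glycolysis, and glycogen phosphorylase releases glucose from the stored polymer.

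RNA was sequenced from the mid wall of the left ventricle of male mice on a 129SVE background, wild-type (WT) or knockout (KO) for muscle LIM protein (MLP), at 3, 6 and 10 weeks of age. MLP, the product of Csrp3, is a protein of the Z-disc of heart muscle. Each of the 6 groups had 3 libraries, and the sources do not say whether these came from separate animals, so p-values measure the spread between these samples. How the Csrp3 allele was made is not stated in the labels.

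Csrp3 itself was not lower in the libraries labelled KO: its mean was 1783 CPM (counts scaled to library size) against 1022 at 3 weeks, 2032 against 1369 at 6 weeks and 2565 against 1048 at 10 weeks. KO lay above WT without overlap at each age. The log2 difference passed at 10 weeks, at 1.29 (edgeR quasi-likelihood test, adjusted p = 0.0041), and not at 3 or 6 weeks. Counts over the whole gene do not show which part was deleted, so KO and WT below mean the libraries labelled so. Totals ran from 14980968 to 23001047 counts per library, and mitochondrially encoded genes took 11% to 16.8% of counts in WT and 7.5% to 10.9% in KO. The 8 cardiomyocyte markers were present in every group. They summed to a median of 100422, 96606 and 103741 CPM in KO at 3, 6 and 10 weeks and 73193, 91004 and 93555 CPM in WT. These sums overlapped between KO and WT at 6 weeks only. Markers of atrial muscle stood apart in 1 KO library at each age, with Myl4 at 118, 436 and 1145 CPM against 1.71 to 23.2 CPM in the other 15 libraries. The 8 fibroblast markers summed to a median of 2360, 2164 and 1309 CPM in KO at 3, 6 and 10 weeks and 1769, 1063 and 909 CPM in WT. In whole tissue, fewer cells of a type and less RNA per cell cannot be told apart.

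The number of members called between KO and WT differed by age, and whether the difference itself changed was tested separately, as given further below. At 3 weeks 3 members were higher and 2 lower in KO, where 8.65% of all 15778 genes tested were higher and 6.68% lower. These counts are near the shares of all genes. At 6 weeks 3 members were higher and 14 lower, against 11% and 12.8% of all genes. At 10 weeks 7 were higher and 3 lower, against 14.6% and 14.7%. A call means an adjusted p below 0.05 in edgeR's quasi-likelihood test with Benjamini-Hochberg adjustment over all genes, and log2 differences are given with their standard error (SE). The median log2 difference over the 29 genes was 0.10, -0.30 and 0.05 at the 3 ages, beside 0.00, 0.00 and -0.03 over all genes tested. In all, 22 members were called at 1 age or more, 3 of them (Pfkp, Pfkfb1 and Pygl) at every age, and 10 were called at 6 weeks alone, all lower. The shares of all genes with these patterns were not computed, so the counts do not show whether the members differ from other genes in this. The 7 never called were Slc2a12, Hk1, Gpi1, Eno1, Gys1, Pygm and Pygb.

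**Figure D1:**
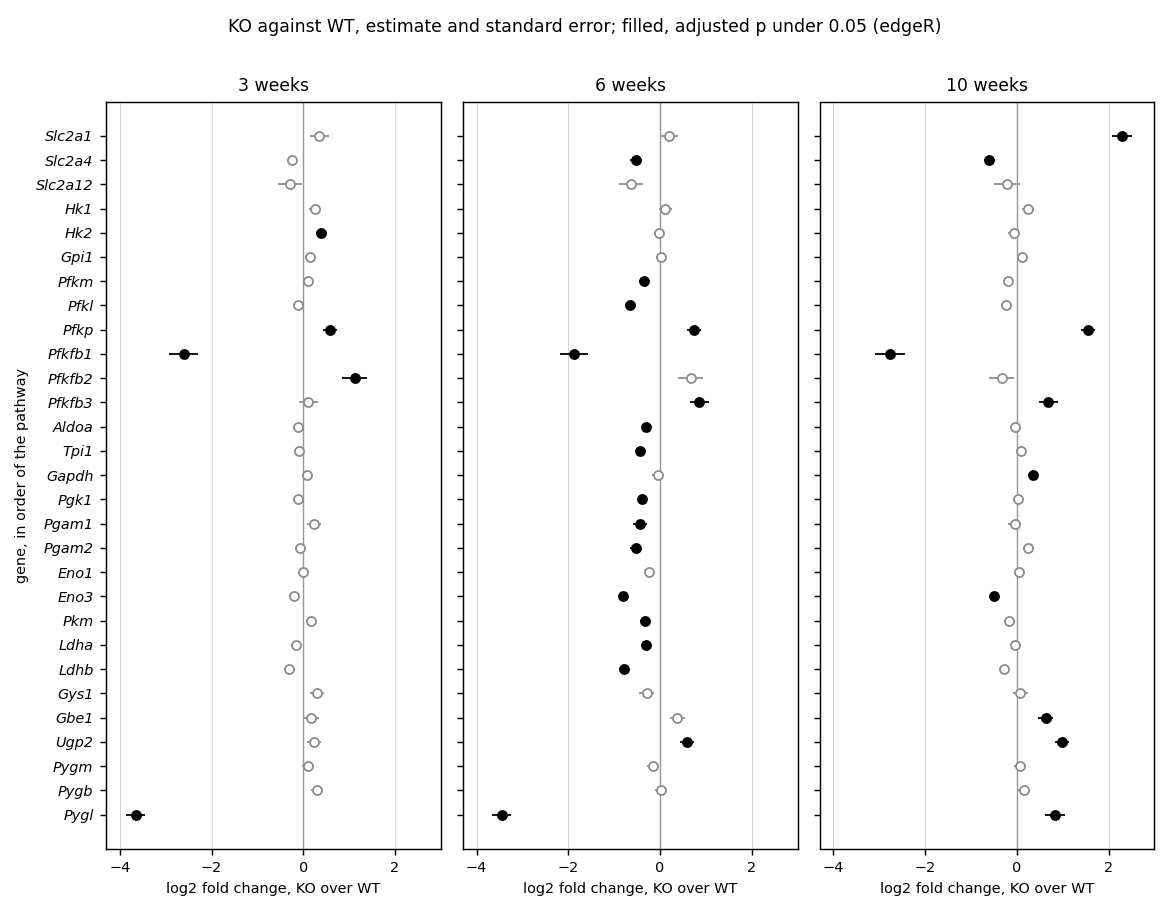
Log2 fold change of KO over WT (horizontal axis) for the 29 tested genes in the order of the pathway at 3, 6 and 10 weeks; points are estimates, bars 1 SE, and filled points passed the adjusted p threshold of 0.05. Filled points left of 0 are most numerous at 6 weeks, where 14 genes were lower in KO, while Slc2a1 and Pfkp lie farthest to the right at 10 weeks.

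The 2 main glucose transporters moved apart. Slc2a1 encodes GLUT1, the transporter of the foetal heart and of many other cells. In WT it stood at 11.4, 10.8 and 15.1 CPM at 3 weeks, 15.5, 18.03 and 16.6 CPM at 6 weeks, and 9.17, 11.6 and 7.09 CPM at 10 weeks. In KO it stood at 18.7, 15.3 and 13.3 CPM, then 19.2, 18.6 and 19.6 CPM, and then 40.5, 63.5 and 33.5 CPM. All 3 KO libraries at 10 weeks lay above every other library, and the groups were also apart, by a small margin, at 6 weeks. The log2 difference at 10 weeks was 2.30 ± 0.21 (adjusted p = 1.2e-07), against 0.35 ± 0.21 at 3 weeks and 0.19 ± 0.20 at 6 weeks, neither of which passed. The difference at 10 weeks exceeded that at 6 weeks by 2.11 ± 0.29 (adjusted p = 0.000189). Both genotypes moved, since Slc2a1 fell in WT from 6 to 10 weeks by 0.84 ± 0.21 (adjusted p = 0.0169) and rose in KO by 1.26 ± 0.20 (adjusted p = 0.00048). The fall in WT was lost without any 1 of 5 of its 6 libraries (the exception being 10-week replicate 2), with an adjusted p of up to 0.101. The 10-week KO library with the highest atrial Myl4, replicate 1, was the middle of the 3 for Slc2a1.

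The promoter of Slc2a1, the member with the largest rise, is shown for its sequence context. The run below holds the bases before the RefSeq start in GRCm38.p6, chr4:119108495-119108713 on the plus strand, and ends with the motif, whose last 3 bases lie inside the gene as annotated in GENCODE M21. Capitals mark ACGTG, the core shared by sites of hypoxia-inducible factors and by E-boxes.
Slc2a1 promoter: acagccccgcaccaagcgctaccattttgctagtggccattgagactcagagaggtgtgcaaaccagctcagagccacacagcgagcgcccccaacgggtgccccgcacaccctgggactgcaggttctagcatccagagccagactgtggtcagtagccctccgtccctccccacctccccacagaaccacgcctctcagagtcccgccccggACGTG

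ACGTG was searched on both strands, so also as CACGT, in the 250 bases before the start. It occurred in 11 of the 29 members with an entry and in 16.6% of all 32851 promoters in the RefSeq table. These 29 include the untested Aldoc, and Slc2a4 had no entry. The 11 were Slc2a1, Hk2, Pfkm, Pfkfb3, Pgk1, Pgam1, Ldha, Ugp2, Pygm, Pygb and Pygl. Slc2a1, Hk2, Pfkfb3 and Ugp2 were higher in KO at 1 age or more, and Pfkm, Pgk1, Pgam1, Ldha and Pygl lower at 6 weeks. Members without a match also went both ways, such as Pfkp and Gbe1 higher and Eno3 and Ldhb lower. For members only the 1 entry nearest the annotated start was searched, and for the share of all promoters every entry, so the 2 are not alike. The entries used for Pfkfb2, Aldoa and Ldha start 13205, 8661 and 4329 bases from the annotated start. A match describes the letters and does not show binding.

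Slc2a4 encodes GLUT4, the insulin-responsive transporter of adult heart and skeletal muscle. In WT it stood at 319, 325 and 353 CPM at 3 weeks, 434, 451 and 486 CPM at 6 weeks, and 394, 431 and 454 CPM at 10 weeks. KO libraries gave 334, 258 and 253 CPM, then 314, 331 and 309 CPM, and then 240, 260 and 344 CPM. The groups overlapped at 3 weeks and not at 6 or 10 weeks. The log2 difference was -0.24 ± 0.12 at 3 weeks, which did not pass, -0.52 ± 0.12 at 6 weeks (adjusted p = 0.00345) and -0.60 ± 0.12 at 10 weeks (adjusted p = 0.000925). Slc2a4 rose in WT from 3 to 6 weeks by 0.46 ± 0.12 (adjusted p = 0.0341). Slc2a12 encodes GLUT12, a minor transporter of muscle, and group means ran from 4.52 to 11.7 CPM. It was not called between genotypes at any age, but fell in WT from 6 to 10 weeks by 1.16 ± 0.27 (adjusted p = 0.0096).

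**Figure D2:**
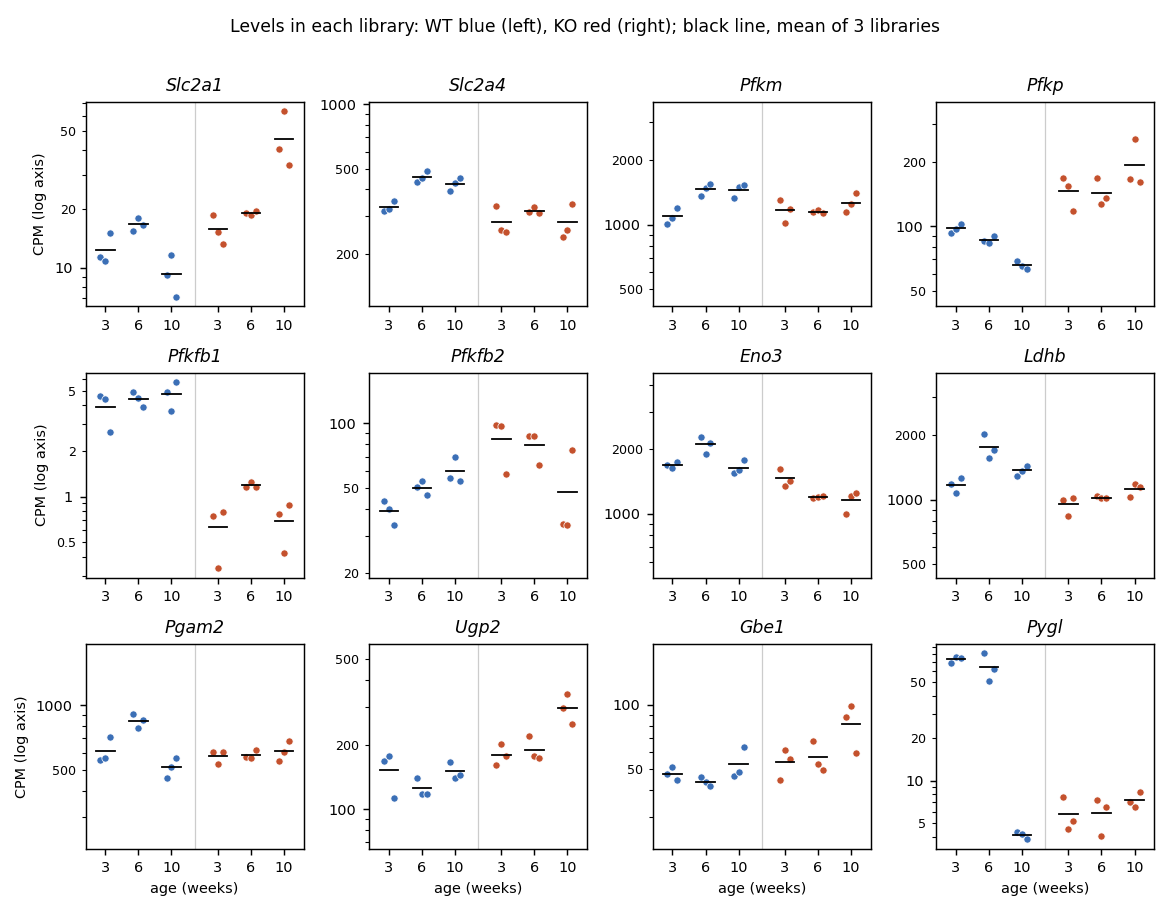
CPM on a log axis in each library for 12 members, with WT at 3, 6 and 10 weeks on the left of each panel in blue and KO on the right in red; black lines are the means of 3 libraries. Slc2a1 in KO at 10 weeks (33.5 to 63.5 CPM) lies above all other groups, and Pygl in WT at 10 weeks (3.84 to 4.29 CPM) lies with the KO groups.

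Per kilobase of exon, which allows levels of different genes to be compared, Slc2a4 exceeded Slc2a1 in every group. The share of Slc2a1 in the sum of both was 3.58%, 3.52% and 2.16% in WT at 3, 6 and 10 weeks and 5.29%, 5.66% and 14.2% in KO. The log2 ratio of Slc2a1 to Slc2a4 was above that of every WT library of the same age in all 9 KO libraries. Averaged over the ages it differed by 1.40 between KO and WT (exact two-sided permutation test within ages, adjusted p = 0.000833 over 10 isoform pairs). That test draws on 8000 arrangements, so its smallest p before adjustment is 0.00025, and within 1 age 3 libraries against 3 cannot go below 0.1.

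Hexokinase traps glucose as glucose 6-phosphate. Hk2, the insulin-regulated muscle form, was at 314 to 373 CPM in KO and 228 to 285 CPM in WT at 3 weeks, without overlap, and was higher in KO by 0.40 ± 0.12 (adjusted p = 0.0244). At 6 and 10 weeks the differences were -0.02 ± 0.12 and -0.07 ± 0.12. The call at 3 weeks was lost in a fit of that age's libraries alone and without WT replicate 1 or 2 or KO replicate 1 (adjusted p of up to 0.138). Hk2 rose from 6 to 10 weeks in both genotypes, by 0.50 ± 0.12 in WT (adjusted p = 0.00957) and 0.45 ± 0.12 in KO (adjusted p = 0.0133). Hk1, the form found in most tissues and in the foetal heart, had group means of 243 to 344 CPM and no call between genotypes. Its log2 ratio to Hk2 differed by 0.10 between KO and WT (exact permutation test, adjusted p = 0.356). Gpi1, which turns glucose 6-phosphate into fructose 6-phosphate, had group means of 579 to 752 CPM and was not called in any of the 10 contrasts. It shares 11.5% of its exon bases with Gm26762 on the opposite strand.

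Phosphofructokinase commits sugar to glycolysis. Its muscle form Pfkm stood in WT at 1004, 1077 and 1198 CPM at 3 weeks, 1358, 1478 and 1550 CPM at 6 weeks, and 1337, 1505 and 1529 CPM at 10 weeks. The KO values were 1299, 1021 and 1184 CPM, then 1144, 1169 and 1139 CPM, and then 1146, 1252 and 1407 CPM. The groups were apart at 6 weeks only. Pfkm was lower in KO at 6 weeks by a log2 difference of -0.35 ± 0.11 (adjusted p = 0.0238). It shares 10.2% of its exon bases in GENCODE M21 with Gm26513 on the same strand.

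Pfkl, the liver form, stood in WT at 165, 179 and 204 CPM, then 237, 237 and 253 CPM, and then 233, 260 and 257 CPM. In KO it stood at 193, 166 and 146 CPM, then 166, 139 and 158 CPM, and then 200, 210 and 231 CPM. KO was below WT without overlap at 6 and 10 weeks. The difference passed at 6 weeks, at -0.65 ± 0.11 (adjusted p = 0.000164), and not at 10 weeks, at -0.23 ± 0.11. Pfkl rose in KO from 6 to 10 weeks by 0.47 ± 0.11 (adjusted p = 0.00787).

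Pfkp, the platelet form and the one most common in the foetus and in non-muscle cells, went the other way. It stood in WT at 93.2, 97.4 and 102 CPM, then 84.9, 83.4 and 89.6 CPM, and then 68.6, 65.3 and 63.2 CPM. KO libraries gave 168, 154 and 117 CPM, then 167, 127 and 135 CPM, and then 166, 254 and 160 CPM. Every KO library was above every WT library. The log2 difference was 0.58 ± 0.15 at 3 weeks (adjusted p = 0.0122), 0.73 ± 0.15 at 6 weeks (adjusted p = 0.00121) and 1.56 ± 0.16 at 10 weeks (adjusted p = 2.29e-07). The call at 3 weeks was lost without WT replicate 1 or KO replicate 1 of that age (adjusted p of up to 0.0615). The difference at 10 weeks exceeded that at 3 weeks by 0.97 ± 0.22 (adjusted p = 0.00946).

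The Pfkp share of Pfkp and Pfkm, per kilobase, was 2.74%, 1.82% and 1.41% in WT at the 3 ages and 3.82%, 3.76% and 4.60% in KO. Their log2 ratio differed by 1.09 between KO and WT (exact permutation test, adjusted p = 0.000833) and lay above that of every WT library of the same age in all 9 KO libraries. The ratio of Pfkl to Pfkm differed in the opposite direction, by -0.18 (adjusted p = 0.005 in the same exact test), with values by age of -0.21, -0.31 and -0.02. So the platelet form gained on the muscle form in KO, and the liver form lost. The fibroblast markers were higher in KO in the sums above, with 2, 7 and 3 of 8 called higher at the 3 ages and 1 lower at 3 weeks. Of all genes 8.65%, 11% and 14.6% were higher at these ages, and 6.68% were lower at 3 weeks. The part of fibroblasts in the difference of Pfkp was not tested.

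The Pfkfb genes encode enzymes that make and degrade fructose 2,6-bisphosphate, an activator of phosphofructokinase. Pfkfb1, the form of liver and skeletal muscle, was scarce. It stood in WT at 4.61, 4.39 and 2.66 CPM, then 4.89, 4.44 and 3.88 CPM, and then 4.88, 3.70 and 5.69 CPM. The KO values were 0.744, 0.336 and 0.795 CPM, then 1.15, 1.26 and 1.16 CPM, and then 0.772, 0.423 and 0.875 CPM. All 9 KO libraries lay below all 9 WT libraries. The log2 difference was -2.61 ± 0.32 at 3 weeks (adjusted p = 8.78e-06), -1.88 ± 0.30 at 6 weeks (adjusted p = 7.58e-05) and -2.78 ± 0.33 at 10 weeks (adjusted p = 1.66e-06). These calls held under all 14 alternatives run. Apex2, which shares 3.06% of the exon bases of Pfkfb1 on the opposite strand, was also lower in KO at 6 weeks, by -1.02 ± 0.23 (adjusted p = 0.00234), and at 10 weeks, by -1.11 ± 0.23 (adjusted p = 0.00109), while its difference at 3 weeks was -0.21 ± 0.22. Reads from both genes in the shared bases cannot be told apart, as the strand setting of the counting is not given.

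Pfkfb2, the heart form, shares 17.4% of its exon bases with Gm29427 on the same strand. It stood in WT at 43.3, 40.1 and 33.5 CPM, then 50.4, 53.8 and 46.5 CPM, and then 55.6, 70.1 and 54.2 CPM. In KO it stood at 98.4, 97.6 and 58.5 CPM, then 87.8, 87.1 and 64.0 CPM, and then 34.2, 33.5 and 75.5 CPM. KO was above WT without overlap at 3 and 6 weeks, and at 10 weeks 2 KO libraries were below and 1 above all WT libraries. The difference passed at 3 weeks, at 1.12 ± 0.28 (adjusted p = 0.0136), and not at 6 weeks, at 0.66 ± 0.28, or 10 weeks, at -0.33 ± 0.28. The call at 3 weeks was lost without KO replicate 1 or 2 (adjusted p of up to 0.0548). Without KO replicate 3 at 10 weeks, Pfkfb2 was called lower at that age, at a log2 difference of -0.80.

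Pfkfb3, the inducible form, stood in WT at 8.74, 10.4 and 7.79 CPM, then 9.29, 7.95 and 7.50 CPM, and then 7.59, 10.02 and 8.83 CPM. KO libraries gave 8.67, 10.3 and 10.2 CPM, then 14.1, 15.3 and 15.3 CPM, and then 20.98, 12.2 and 9.63 CPM. The groups were apart at 6 weeks and overlapped at 3 and 10 weeks. Pfkfb3 was higher in KO at 6 weeks by 0.85 ± 0.21 (adjusted p = 0.00435) and at 10 weeks by 0.69 ± 0.21 (adjusted p = 0.0164). The highest value at 10 weeks came from the library with the most Myl4, and the call at that age was lost without it, as it was without WT replicate 1 (adjusted p of up to 0.196 over all alternatives).

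Of the 3 genes of upper glycolysis tested 2 were lower in KO at 6 weeks, and of the 7 of lower glycolysis 5, where 12.8% of all genes were lower. Several of them (Aldoa, Tpi1, Gapdh, Pgk1, Pgam1, Eno1 and Ldha) have near-identical copies or pseudogenes, and how reads matching several places were counted is not given, so their levels are uncertain to that degree. Aldolase splits fructose 1,6-bisphosphate, and its muscle form Aldoa had 2265 to 2394 CPM in KO and 2757 to 3049 CPM in WT at 6 weeks, a log2 difference of -0.30 ± 0.10 (adjusted p = 0.0356). Aldoc had 1 to 11 counts per library, and Aldoc made up 0.0109% to 0.0225% of both forms per kilobase in the group means. Tpi1, which interconverts the 2 triose phosphates, had 711 to 771 CPM in KO and 917 to 1096 CPM in WT at 6 weeks, a difference of -0.43 ± 0.10 (adjusted p = 0.00256). Gapdh, the dehydrogenase that is often used as a reference gene, differed by -0.06 ± 0.11 at 6 weeks. At 10 weeks Gapdh was higher in KO, at 2877 to 3683 CPM against 2325 to 2932 CPM, with overlap and a difference of 0.35 ± 0.11 (adjusted p = 0.0213). That call was lost in a fit of that age's libraries alone and without WT replicate 1, KO replicate 2 or KO replicate 3 (adjusted p of up to 0.126).

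Pgk1, which makes the first ATP of the pathway, had 341 to 412 CPM in KO and 462 to 557 CPM in WT at 6 weeks, a difference of -0.40 ± 0.10 (adjusted p = 0.0061). The call was lost without WT replicate 1 of that age (adjusted p = 0.0521). Phosphoglycerate mutase has a muscle form, Pgam2, and a general form, Pgam1. Pgam2 stood in WT at 553, 569 and 708 CPM, then 907, 783 and 849 CPM, and then 457, 516 and 567 CPM. The KO values were 606, 530 and 603 CPM, then 571, 566 and 617 CPM, and then 547, 607 and 681 CPM. The WT libraries at 6 weeks were above all other groups, and KO varied little with age. The difference was -0.53 ± 0.11 at 6 weeks (adjusted p = 0.00151) and 0.25 ± 0.11 at 10 weeks, which did not pass. The genotype difference rose from 6 to 10 weeks by 0.79 ± 0.16 (adjusted p = 0.00619), and within WT Pgam2 rose from 3 to 6 weeks by 0.47 ± 0.11 (adjusted p = 0.0199) and then fell by 0.72 ± 0.12 (adjusted p = 0.000427).

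Pgam1 stood in WT at 26.9, 28.0 and 30.0 CPM, then 28.5, 32.6 and 32.5 CPM, and then 49.3, 50.2 and 50.4 CPM. In KO it stood at 45.0, 26.4 and 27.7 CPM, then 23.2, 22.0 and 24.1 CPM, and then 47.1, 53.4 and 45.0 CPM. It was highest at 10 weeks in both genotypes, and KO lay below WT at 6 weeks, by -0.43 ± 0.15 (adjusted p = 0.0367). From 6 to 10 weeks Pgam1 rose by 0.68 ± 0.15 in WT (adjusted p = 0.0056) and by 1.07 ± 0.15 in KO (adjusted p = 0.00011). The ratio of Pgam1 to Pgam2 differed by 0.02 between genotypes (exact permutation test, adjusted p = 0.88).

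Enolase makes phosphoenolpyruvate, and Eno3 is its muscle form. Eno3 stood in WT at 1686, 1639 and 1747 CPM, then 2288, 1904 and 2137 CPM, and then 1552, 1598 and 1777 CPM. KO libraries gave 1626, 1353 and 1430 CPM, then 1186, 1206 and 1216 CPM, and then 1004, 1210 and 1257 CPM. KO was below WT without overlap at all 3 ages. The difference was -0.20 ± 0.11 at 3 weeks, which did not pass, -0.81 ± 0.11 at 6 weeks (adjusted p = 8.32e-06) and -0.51 ± 0.11 at 10 weeks (adjusted p = 0.00101).

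Eno1, the general and foetal form, stood in WT at 101, 99.3 and 116 CPM, then 97.0, 106 and 112 CPM, and then 91.3, 94.4 and 102 CPM. The KO values were 109, 106 and 100 CPM, then 88.4, 83.5 and 95.5 CPM, and then 93.6, 105 and 99.7 CPM. Eno1 was not called at any age. The Eno1 share of both, per kilobase, was 1.98%, 1.60% and 1.85% in WT and 2.27%, 2.34% and 2.72% in KO, and the log2 ratio differed by 0.45 (exact permutation test, adjusted p = 0.000833).

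The promoter of Eno3, the member with the lowest adjusted p at 6 weeks after Pygl, is shown beside that of Slc2a1. It spans chr11:70656926-70657175 on the plus strand of GRCm38.p6 (RefSeq) and holds no ACGTG on either strand, so it has no capitals.
Eno3 promoter: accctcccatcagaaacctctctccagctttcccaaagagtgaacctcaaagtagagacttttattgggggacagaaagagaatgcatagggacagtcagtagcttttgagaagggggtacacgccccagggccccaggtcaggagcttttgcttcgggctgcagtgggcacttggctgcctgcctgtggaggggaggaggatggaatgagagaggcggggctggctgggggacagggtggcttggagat

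Pkm, pyruvate kinase, had 1389 to 1437 CPM in KO and 1659 to 1903 CPM in WT at 6 weeks, a difference of -0.32 ± 0.11 (adjusted p = 0.0374). Counts per gene do not separate its muscle and foetal splice forms. Pkm also shares 15.3% of its exon bases with Gm49759 on the same strand. Ldha, the lactate dehydrogenase subunit of fast muscle, stood in WT at 895, 904 and 972 CPM, then 1035, 929 and 972 CPM, and then 764, 859 and 854 CPM. In KO it stood at 764, 966 and 731 CPM, then 840, 765 and 770 CPM, and then 735, 864 and 798 CPM. The groups were apart at 6 weeks only, and the difference there was -0.31 ± 0.11 (adjusted p = 0.042).

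Ldhb, the heart subunit, stood in WT at 1185, 1073 and 1262 CPM, then 2021, 1559 and 1702 CPM, and then 1296, 1369 and 1445 CPM. KO libraries gave 994, 840 and 1022 CPM, then 1039, 1018 and 1017 CPM, and then 1028, 1188 and 1153 CPM. KO was below WT without overlap at each age. Only the difference at 6 weeks passed, at -0.78 ± 0.11 (adjusted p = 1.92e-05), with -0.30 ± 0.11 at 3 weeks and -0.29 ± 0.11 at 10 weeks. In WT Ldhb rose from 3 to 6 weeks by 0.59 ± 0.11 (adjusted p = 0.00417). The Ldha share of both, per kilobase, was 27.2%, 20.96% and 22.2% in WT and 29.1%, 26.8% and 25.2% in KO, and the ratio differed by 0.28 (exact permutation test, adjusted p = 0.00875).

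Of the 14 genes lower at 6 weeks, Pfkm, Aldoa, Pgam1, Pkm and Ldha had the smallest margins. Without the 3 libraries over 50 CPM of Myl4, 9 were called, and these 5 were not. Leaving out 1 library at a time gave 9 to 12 members called lower, and each of the 5 was lost without any single KO library of that age. The highest adjusted p over all alternatives was 0.114 for Pfkm, 0.171 for Aldoa, 0.12 for Pgam1, 0.182 for Pkm and 0.146 for Ldha. The calls of Slc2a4, Pfkl, Pfkfb1, Tpi1, Pgam2, Eno3, Ldhb and Pygl at 6 weeks held under all 14 alternatives. Fibroblast markers were higher in KO at this age, as given above. Of the 8 cardiomyocyte markers 3 were lower and 1 higher in KO at 6 weeks, beside 12.8% and 11% of all genes. The sum of these markers ran from 86116 to 98000 CPM in KO and from 88526 to 100042 CPM in WT. Of the 8 macrophage markers 2 were lower, beside the same 12.8%, with a sum of 228 to 276 CPM in KO and 294 to 372 CPM in WT. The part of these cell types in the lower levels was not tested.

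Whether the genotype difference itself changed with age was tested directly. From 3 to 6 weeks no member's difference rose and 1 fell, beside 0.494% and 1.1% of all genes. That was Eno3, by 0.61 ± 0.15 (adjusted p = 0.041), and the call was lost without the 3 libraries over 50 CPM of Myl4 and without any 1 of 9 libraries of these ages (adjusted p of up to 0.122). At an unadjusted p below 0.05 there were 11 of 29 members in either direction, beside 15.2% of all genes, and DESeq2 called 0 that rose and 3 that fell. From 6 to 10 weeks 5 members' differences rose (Slc2a1, Pfkp, Tpi1, Pgam2 and Pygl) and none fell, beside 3.12% and 2.63% of all genes. Again 11 had an unadjusted p below 0.05 in edgeR, beside 21.8% of all genes, and DESeq2 and limma each called 0 that fell. From 3 to 10 weeks 4 rose (Slc2a1, Pfkp, Ugp2 and Pygl) and 1 fell (Pfkfb2), beside 2.82% and 2.94% of all genes. The calls of Slc2a1, Pygl and Pgam2, and of Pfkp from 3 to 10 weeks, held under all 19 alternatives. Those of Pfkp from 6 to 10 weeks, Tpi1, Ugp2 and Pfkfb2 were lost under 8, 8, 9 and 11 of them, with an adjusted p of up to 0.0899, 0.099, 0.129 and 0.112, mostly when a single library was left out. Of the 10 members lower at 6 weeks alone, Tpi1 and Pgam2 had a called change of the difference from 6 to 10 weeks, and none had one from 3 to 6 weeks.

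Changes with age within a genotype show which group moved. In WT 6 members rose from 3 to 6 weeks (Slc2a4, Pfkm, Pfkl, Tpi1, Pgam2 and Ldhb) and none fell, beside 2.94% and 2.24% of all genes. In KO over the same time none rose and 1 fell (Pgam1), beside 5.34% and 6.25%. From 6 to 10 weeks 2 members rose in WT (Hk2 and Pgam1) and 8 fell (Slc2a1, Slc2a12, Tpi1, Pgam2, Eno3, Ldhb, Pygb and Pygl), beside 3.64% and 5.12%. In KO 7 rose (Slc2a1, Hk2, Pfkl, Pgam1, Gys1, Gbe1 and Ugp2) and none fell, beside 6.52% and 6.14%. DESeq2 and limma each called 1 member higher in KO from 3 to 6 weeks and 1 lower from 6 to 10 weeks, and neither called a member lower in WT from 3 to 6 weeks. At an unadjusted p below 0.05 in edgeR there were 14, 7 and 14 members in either direction in these 3 contrasts (WT from 3 to 6 weeks, KO from 3 to 6 weeks and KO from 6 to 10 weeks), beside 21.7%, 25% and 27.2% of all genes, so the 7 of 29 in KO from 3 to 6 weeks are near the background. The number of members called in WT from 3 to 6 weeks depended on which libraries were included: 1 member was called higher without replicate 1 or 2 at 3 weeks or replicate 1 or 3 at 6 weeks, and 3 without replicate 2 at 6 weeks. Calls over all genes moved with it, from 818 to 278, 199, 213, 305 and 643 in the same order. Of the 6 rises, that of Ldhb held under all 12 alternatives.

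Of the 3 genes of glycogen synthesis, 1 was higher in KO at 6 weeks, where 11% of all genes were, and 2 at 10 weeks, where 14.6% were. Ugp2 makes UDP-glucose, the building block of glycogen. It stood in WT at 167, 177 and 113 CPM, then 139, 118 and 118 CPM, and then 167, 140 and 144 CPM. The KO values were 160, 201 and 177 CPM, then 219, 177 and 172 CPM, and then 296, 343 and 251 CPM. KO lay above WT without overlap at 6 and 10 weeks. The difference was 0.23 ± 0.15 at 3 weeks, which did not pass, 0.60 ± 0.15 at 6 weeks (adjusted p = 0.00636) and 0.98 ± 0.15 at 10 weeks (adjusted p = 5.85e-05).

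Gbe1, the glycogen branching enzyme, stood in WT at 47.7, 51.2 and 44.3 CPM, then 45.8, 43.6 and 41.8 CPM, and then 46.8, 48.4 and 63.7 CPM. Its KO values were 44.4, 61.3 and 56.1 CPM, then 67.9, 53.0 and 49.7 CPM, and then 87.3, 98.2 and 59.5 CPM. At 10 weeks 2 KO libraries were above and 1 within the range of WT. The difference was 0.17 ± 0.17, 0.38 ± 0.17 and 0.63 ± 0.17, of which only the last passed (adjusted p = 0.00732). Gys1, muscle glycogen synthase, had group means of 88.6 to 136 CPM and no call between genotypes, and rose in KO from 6 to 10 weeks by 0.62 ± 0.16 (adjusted p = 0.015).

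The promoter of Ugp2 is shown as the member of this branch that differed most. It spans chr11:21371268-21371517 on the minus strand of GRCm38.p6 (RefSeq), and capitals mark its single ACGTG.
Ugp2 promoter: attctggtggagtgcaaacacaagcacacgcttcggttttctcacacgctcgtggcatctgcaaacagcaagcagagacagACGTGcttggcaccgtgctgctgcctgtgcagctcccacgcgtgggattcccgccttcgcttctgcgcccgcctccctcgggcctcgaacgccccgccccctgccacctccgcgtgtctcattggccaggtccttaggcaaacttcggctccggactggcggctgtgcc

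Glycogen phosphorylase has muscle, brain and liver forms. Pygm, the muscle form, stood in WT at 1044, 1137 and 1273 CPM, then 1274, 1538 and 1549 CPM, and then 1444, 1592 and 1705 CPM. KO libraries gave 1352, 1140 and 1202 CPM, then 1230, 1353 and 1330 CPM, and then 1364, 1641 and 1967 CPM. The groups overlapped at each age, and Pygm was not called in any contrast.

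Pygb, the brain form, which the foetal heart also makes, stood in WT at 762, 768 and 853 CPM, then 1010, 1067 and 1091 CPM, and then 791, 863 and 725 CPM. The KO values were 982, 1091 and 846 CPM, then 1023, 1085 and 1116 CPM, and then 752, 796 and 1115 CPM. Its groups overlapped at each age too. Its log2 ratio to Pygm differed by 0.15 (exact permutation test, adjusted p = 0.0464), and this was lost without any 1 of 12 of the 18 libraries (adjusted p of up to 0.119).

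Pygl, the liver form, had the largest differences of all members. It stood in WT at 69.3, 76.1 and 74.9 CPM at 3 weeks, 80.7, 50.9 and 62.1 CPM at 6 weeks, and 4.29, 4.20 and 3.84 CPM at 10 weeks. KO libraries gave 7.66, 4.54 and 5.14 CPM, then 7.26, 4.02 and 6.48 CPM, and then 7.09, 6.53 and 8.35 CPM. The libraries form 2 sets: the 6 WT libraries of 3 and 6 weeks on one, and the 3 WT libraries of 10 weeks with all 9 KO libraries on the other. The log2 difference of KO from WT was -3.66 ± 0.21 at 3 weeks (adjusted p = 3.05e-10), -3.45 ± 0.21 at 6 weeks (adjusted p = 4.3e-10) and 0.83 ± 0.22 at 10 weeks (adjusted p = 0.00804). The change of sign lay in WT, where Pygl fell from 6 to 10 weeks by 3.97 ± 0.22 (adjusted p = 1.58e-10), and no age step passed in KO. The ratio of Pygl to Pygm differed by -3.78 and -3.29 at 3 and 6 weeks and by 0.76 at 10 weeks (exact permutation test over the 3 ages, adjusted p = 0.00875).

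The promoter of Pygl is shown because its level changed most. The RefSeq start lies 3805 bases inside the gene as annotated in GENCODE M21. It spans chr12:70227684-70227933 on the minus strand of GRCm38.p6 (RefSeq), and capitals mark its single ACGTG.
Pygl promoter: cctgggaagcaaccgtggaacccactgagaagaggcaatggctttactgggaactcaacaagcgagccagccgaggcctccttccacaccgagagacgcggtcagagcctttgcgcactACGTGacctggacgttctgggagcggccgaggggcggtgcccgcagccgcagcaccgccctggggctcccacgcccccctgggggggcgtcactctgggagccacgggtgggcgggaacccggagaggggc

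Genes beside Pygl on chromosome 12 were examined after its values had been seen. Tmx1, which encodes a thioredoxin-related membrane protein and starts 222 kb from Pygl, had means of 142, 101 and 55.2 CPM in WT at 3, 6 and 10 weeks and 62.1, 52.3 and 40.2 CPM in KO. It was lower in KO at 3 weeks by -1.19 ± 0.17 (adjusted p = 7.53e-05) and at 6 weeks by -0.95 ± 0.17 (adjusted p = 0.000373), and fell in WT from 6 to 10 weeks by 0.87 ± 0.17 (adjusted p = 0.00317). Trim9, between them, had means of 1.07, 0.792 and 0.0522 CPM in WT and 0.353, 0.0931 and 0.242 CPM in KO. It was lower in KO at 6 weeks by -3.03 ± 0.74 (adjusted p = 0.00434) and fell in WT from 6 to 10 weeks by 3.72 ± 0.81 (adjusted p = 0.00597). In KO and in WT at 10 weeks Trim9 had only a few reads per library, near the floor. The sizes of its differences are thus uncertain, and they carry little weight beside those of Tmx1. Of the 7 neighbours tested within 500 kb, 1 was lower in KO at 3 weeks, beside 6.68% of all genes. At 6 weeks 2 were lower (Trim9 and Tmx1) and 2 higher (Cdkl1 and Sav1), beside 12.8% and 11%. At 10 weeks 3 were higher, beside 14.6%. In WT 3 fell from 6 to 10 weeks (Nin, Trim9 and Tmx1), beside 5.12%. Pygl, Trim9 and Tmx1 were thus lower in WT at 10 weeks than at 6 weeks. Calls in both directions were also found around Pfkfb1, where 3 of 7 neighbours were higher and 1 lower in KO at 6 and at 10 weeks. Any difference between the WT mice of 10 weeks and the younger ones other than age cannot be told apart from age, which bears on every 10-week comparison with WT.

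**Figure D3:**
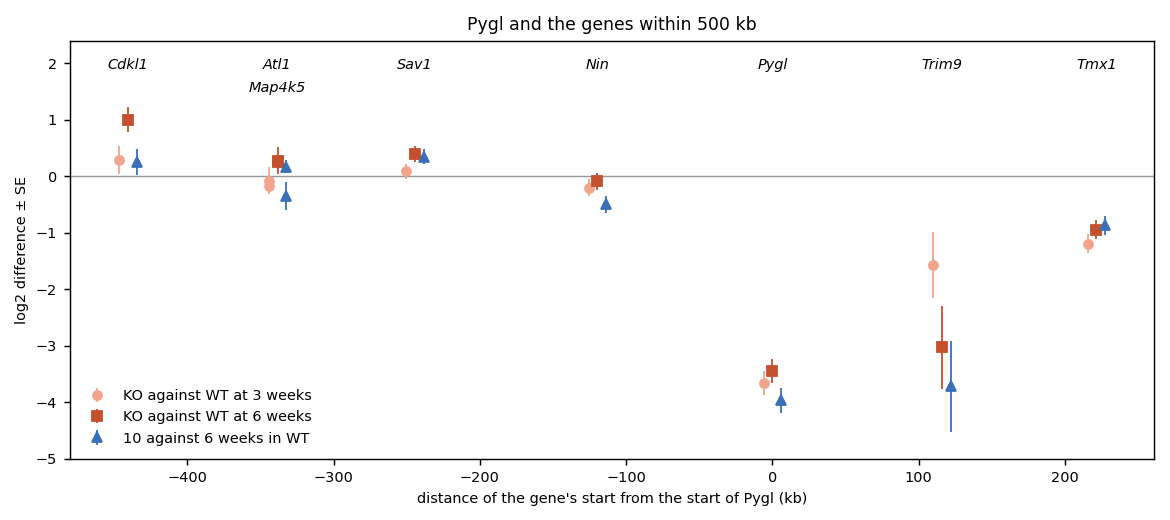
Log2 difference with SE (vertical axis) of Pygl and 7 neighbours by the distance of each gene's start from that of Pygl in kb (positive towards higher coordinates), for KO against WT at 3 weeks (pale circles), at 6 weeks (squares) and WT at 10 against 6 weeks (triangles); Atl1 and Map4k5 start at nearly the same place and their points overlap. Pygl, Trim9, Tmx1 and Nin lie below 0 in all 3 comparisons, with Nin closest to 0 and called only in WT from 6 to 10 weeks.

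Across the steps, 7 of the 10 isoform ratios differed between genotypes over the 3 ages. In KO Slc2a1, Pfkp, Eno1 and Pygb gained on the muscle form of their step, and Pfkl and, over the mean of the ages, Pygl lost. Ldha, the subunit of fast muscle, gained on Ldhb, that of heart. Those of Hk1, Pgam1 and Aldoc to their partners did not pass. Levels per kilobase use the length of all exons of a gene joined, as given in the files, and not of the transcripts in use.

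**Figure D4:**
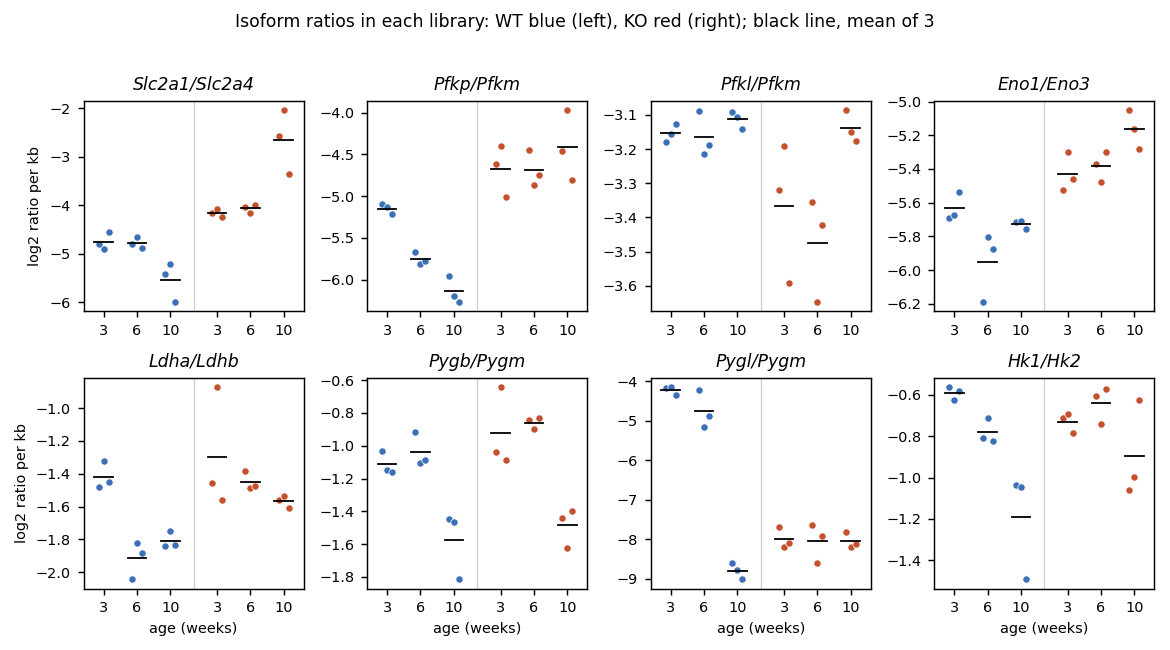
Log2 ratio per kilobase of the first to the second gene named above each panel, in each library, for 8 of the 10 pairs, with WT left in blue and KO right in red at 3, 6 and 10 weeks; lines are means of 3 libraries. In Slc2a1/Slc2a4 and Pfkp/Pfkm all KO points lie above the WT points of the same age, and in Pygl/Pygm the 10-week WT points lie lowest.

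Other genes of the pathway were grouped in 8 lists. Their counts stand beside the shares of all genes called higher and lower in KO, 8.65% and 6.68% at 3 weeks, 11% and 12.8% at 6 weeks, and 14.6% and 14.7% at 10 weeks. None of the 6 other glucose transporters tested (of 7) was called at any age by edgeR, DESeq2 or limma, and 2, 1 and 1 had an unadjusted p below 0.05 in edgeR at 3, 6 and 10 weeks. Of 14 genes that link insulin to glucose uptake, 3 were higher at 3 weeks, 2 higher and 2 lower at 6 weeks, and 5 higher and 3 lower at 10 weeks. At 6 weeks that is close to the share of all genes. Igf1r, the receptor of insulin-like growth factor 1, was at 85.4 to 169 CPM in KO and 24.7 to 28.0 CPM in WT at 10 weeks, a log2 difference of 2.21 (adjusted p = 2.8e-06). Irs2, which relays the insulin signal, differed by 2.21 at 3 weeks (adjusted p = 0.00801). Tbc1d4, a brake on GLUT4 movement, stood at 112 to 131 CPM in WT at 10 weeks and at 21.7 to 42.3 CPM in all other libraries, a KO difference of -2.17 at 10 weeks (adjusted p = 2.15e-10). For Tbc1d4, WT at 10 weeks was thus the group that stood apart. For Pygl it differed from the younger WT groups too, but lay with the KO libraries.

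Of 11 other glycolytic enzymes tested (of 13), 2 were higher and 1 lower at 3 weeks, 1 and 2 at 6 weeks, and 4 and 2 at 10 weeks. Fbp2, the muscle enzyme that reverses the phosphofructokinase step, had means of 6.32, 3.69 and 2.37 CPM in KO and 7.58, 10.3 and 23.7 CPM in WT, and differed by -3.33 at 10 weeks (adjusted p = 4.78e-09), where WT was at its highest. Galm, an enzyme of galactose use, was lower at all 3 ages, by -0.88, -0.73 and -1.67.

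Of 18 genes that handle pyruvate and lactate, 2 were higher and 4 lower at 3 weeks, 3 and 7 at 6 weeks, and 2 and 8 at 10 weeks. Slc16a3, the lactate exporter MCT4, was higher at each age, by 1.24, 0.76 and 1.58, though the call at 6 weeks was lost under 5 of 14 alternatives. Pdk4, which switches off pyruvate dehydrogenase, was called at 3 weeks only (1.41, adjusted p = 0.043), and the call was lost under 7 of 14 alternatives. Slc16a7, the lactate transporter MCT2, was lower at 10 weeks by -1.37 (adjusted p = 0.000101).

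Of 22 other glycogen genes tested (of 23), 2 were higher and 3 lower at 3 weeks, 4 and 5 at 6 weeks, and 5 and 2 at 10 weeks. Phka1, the muscle regulatory subunit of phosphorylase kinase, was higher at each age, by 0.80, 0.71 and 1.30, and Phkg1, its muscle catalytic subunit, was lower, by -1.08, -1.17 and -1.23, with calls lost under 5, 3 and 2 of 14 alternatives. Pgm2, a phosphoglucomutase, was lower at 6 weeks by -0.92 (adjusted p = 0.00199), with -0.32 at 3 weeks and 0.10 at 10 weeks. Of 8 genes of the NADH shuttles, which carry electrons from glycolysis into mitochondria, none was called at 3 weeks by edgeR, DESeq2 or limma (4 had an unadjusted p below 0.05 in edgeR), 6 were lower at 6 weeks and 2 at 10 weeks. Got1, Mdh2 and Slc25a11 differed by -0.86, -0.76 and -0.70 at 6 weeks. The median log2 difference of the 8 was -0.42 at 6 weeks, beside 0.00 over all genes.

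Of 12 genes of side branches, 1 was higher at each age and 1, 4 and 3 were lower. Sord, which makes fructose from sorbitol, had means of 83.7, 76.5 and 82.2 CPM in KO and 160, 227 and 227 CPM in WT and was lower at each age. Gfpt1, the entry to hexosamine synthesis, was higher at each age, by 0.63, 0.45 and 0.80. Gfpt2, the second enzyme of that step, was lower at 6 weeks by -1.02 (adjusted p = 0.00589), with -0.26 at 3 weeks and 0.29 at 10 weeks. Of 20 transcriptional regulators, 5 were higher and 2 lower at 3 weeks, 4 and 5 at 6 weeks, and 4 and 6 at 10 weeks. Myc, which drives growth and glycolytic genes, was at 6.01 to 18.3 CPM in KO and 2.17 to 3.20 CPM in WT at 10 weeks, a difference of 2.04 (adjusted p = 0.00042). Its highest value came from the library with the most Myl4. Ppargc1a, a coactivator of mitochondrial genes, was at 128 to 226 CPM in KO and 55.9 to 80.5 CPM in WT at 3 weeks, a difference of 1.35 (adjusted p = 6.54e-05), and was lower at 6 weeks by -0.58 (adjusted p = 0.0284, lost under 5 of 14 alternatives). Txnip, which limits glucose uptake, was lower at 3 weeks by -0.73 (adjusted p = 0.0409, lost under 6 of 14 alternatives) and at 6 weeks by -1.03 (adjusted p = 0.00359).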

How the data were processed

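RNA sequencing of 18 libraries was deposited as raw counts per gene, with 1 table per library. Per the submitters' processing notes, the authors used Trimmomatic 0.36, STAR 2.5.2b, featureCounts and Subread 1.5.2 with GRCm38 to make the deposited counts. The annotation release, strand setting and treatment of reads matching several places are not given in the sources used here. Of 49315 gene identifiers, 49056 matched GENCODE M21, from which symbols were taken.

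Samples were grouped by the labels' genotype and age. Genes were filtered with filterByExpr (minimum count 10, minimum total 15), which left 15778, scaled by TMM and tested in 1 quasi-likelihood fit over all libraries with edgeR 4.0.16 in R 4.3.3, with 10 contrasts and Benjamini-Hochberg adjustment over all genes (threshold 0.05). The SE is the log2 difference divided by the root of the F statistic. Isoform ratios per kilobase used a prior count of 2 and an exact permutation test within ages. Members and lists were chosen with earlier results of these data known. Values in every library are given for up to 14 members by the largest log2 difference among those called, and for both genes of each pair whose ratio passed, and from each list up to 3 called genes with at least 2 CPM in 1 group are named, apart from 1 that is not reported here. The fit was also run on simulated counts as a check of the code, whose outcome is not given here and on which no result rests. Alternatives were DESeq2 1.42.0 and its size factors, limma 3.58.1 (voom), no low-count filter, no mitochondrial genes, a replicate block, libraries of 1 age only, omission of the 3 libraries over 50 CPM of Myl4, and omission of each library. Totals of 14980968 to 23001047 counts limit precision for genes of a few CPM.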

Additional observations from a re-analysis of the deposited data

Results flagged for a closer look

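The results listed here are those in which the difference between KO and WT itself changed between ages, by edgeR's quasi-likelihood test of the interaction with an adjusted p below 0.05. Values are the change of the signed log2 difference of KO from WT, so a positive value can also mean that a negative difference became smaller.

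Among the members, the difference of Slc2a1 changed by 2.11 from 6 to 10 weeks and by 1.95 from 3 to 10 weeks. That of Pfkp changed by 0.82 and 0.97 over the same steps. That of Pygl changed by 4.28 and 4.49, from -3.45 at 6 weeks and -3.66 at 3 weeks to 0.83 at 10 weeks. From 6 to 10 weeks Tpi1 changed by 0.51, from -0.43 to 0.08, and Pgam2 by 0.79, from -0.53 to 0.25. From 3 to 10 weeks Ugp2 changed by 0.75 and Pfkfb2 changed by -1.45. From 3 to 6 weeks Eno3 changed by -0.61.

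Among the other genes of the pathway, Tbc1d4 changed by -2.13 from 6 to 10 weeks and -2.02 from 3 to 10 weeks, Fbp2 by -1.86 and -3.07, and Galm by -0.94 and -0.79. From 6 to 10 weeks Igf1r changed by 1.16, Pgm2 by 1.02, Gfpt2 by 1.32 and Slc16a7 by -1.09. These calls were lost under 13, 10, 9 and 12 of 19 alternatives. From 3 to 6 weeks Sord changed by -0.63, Got1 by -0.76 and Ppargc1a by -1.93, and from 3 to 10 weeks Ppargc1a changed by -1.62. The calls of Sord and Got1 were lost under 13 and 9 of 19 alternatives and that of Galm from 3 to 10 weeks under 6, while those of Ppargc1a, Tbc1d4 and Fbp2 held under all 19. Tbc1d4 had a mean of 121 CPM in WT at 10 weeks against 38.5 CPM at 6 weeks, while its change in KO over that time was -0.47.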

How the results depend on the processing

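Among the values followed, as set out at the end of this section, none that was called in the main fit or in an alternative changed sign under that alternative. Sign changes of values called in neither were not counted. Of the counts of members called, 228 stayed within 1.5 times the value reported and 70 did not. At 6 weeks 5 members were higher without the low-count filter and 5 with only that age's libraries, and 9 were lower without the 3 libraries over 50 CPM of Myl4. For the change of the genotype difference from 3 to 6 weeks, 3 fell with DESeq2, 3 without the filter and 0 without the Myl4 libraries. From 6 to 10 weeks 1 fell without the filter. In KO from 3 to 6 weeks 1 rose with DESeq2, limma voom or no filter, and 3 fell with DESeq2 and 2 without the filter. In KO from 6 to 10 weeks 1 fell with DESeq2 or limma voom and 2 without the filter. With the replicate block 0 differences fell from 3 to 10 weeks, against 1 without it, and 14 members were lower at 6 weeks either way. Deviations of libraries sharing a replicate number correlated between -0.084 and 0.085, so the numbers were not taken as pairs. Leaving out 1 library at a time gave 0 to 3 higher at 3 weeks and 9 to 12 lower at 6 weeks. For the genotype difference it gave 0 to 2 falls from 3 to 6 weeks, 3 to 7 rises and 0 to 1 falls from 6 to 10 weeks, and 0 to 1 falls from 3 to 10 weeks. In WT it gave 1 to 7 rises and 0 to 1 falls from 3 to 6 weeks, and 1 to 2 rises and 2 to 6 falls from 6 to 10 weeks. In KO it gave 0 to 1 falls from 3 to 6 weeks, and 4 to 9 rises and 0 to 3 falls from 6 to 10 weeks. The cause of these shifts was not tested, and fits without a library or a filter also test other numbers of samples or genes. Single genes were followed for all tested members in the 3 comparisons of KO with WT. For changes with age, changes of the genotype difference and genes of the lists, only values called in the main fit were followed. A call gained there could not be counted. Of the values followed, 330 lost their call and 16 gained one, against 2510 that stayed called or not called as in the main fit. The numbers lost and gained are thus not alike. At the depth of these libraries Aldoc had too few counts to be tested.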
